A study of Mus musculus with 473 samples.

Results

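P7.FB.2 is a cluster of 55 single forebrain cells of postnatal day 7 (P7) mice, named by the authors' own cluster label on each cell. It holds 55 of the 473 cells of the study, 55 of the 224 P7 cells that the authors' quality control passed, and 55 of the 81 passed P7 forebrain cells. The other 26 passed forebrain cells are labelled P7.FB.1, and 14 further P7 forebrain cells did not pass. Members were taken by that label alone, so no measured value of a single gene chose them; the authors' clustering used the expression of the same cells, so differences between P7.FB.2 and other clusters are given as descriptions, with no test.

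The study sorted cells at 2 ages from forebrain, midbrain and, at P7, olfactory bulb; the protocol names the hypothalamus as the forebrain region at the embryonic age and gives no narrower region at P7. All groups used here carry the same transgene: hemizygous Th:EGFP mice (Tg(Th-EGFP)DJ76Gsat/Mmnc), in which a bacterial artificial chromosome puts enhanced green fluorescent protein (eGFP) under regulatory DNA of tyrosine hydroxylase (Th), kept on the outbred Swiss Webster background, with no other treatment. Tissue of 5 P7 mice was pooled per region, dissociated with papain, passed through a density gradient and sorted for eGFP fluorescence without propidium iodide, and each cell's polyadenylated RNA was sequenced by Smart-Seq2, which covers whole transcripts. Each region is therefore 1 pool of animals, cells are not replicates of it, and no p-value is given. The sort depends on the reporter, so cells in which the transgene is not active, or is active without Th, bear on what the group can model.

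The hypothalamus holds several small groups of neurons that make dopamine, and others that transcribe Th without the remaining dopamine genes. Th makes L-DOPA, Ddc turns it into dopamine, Slc18a2 (the vesicular monoamine transporter) loads it into vesicles and Slc6a3 (the dopamine transporter) takes it back up. Most hypothalamic neurons also release GABA or glutamate together with neuropeptides, and homeodomain and other transcription factors that set up the region's nuclei in the embryo remain in use as labels of neuron types.

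The library plates need stating before the values. Members lay on 3 plates, with 20 cells on TH02_16.18.20, 21 on TH02_18.20.16 and 14 on TH02_20.16.18. Each label gives how many genes its cell had, and this was set against how many genes reached FPKM of 1 in the data column of the same name. On TH02_18.20.16 both counts went together across P7 cells (r = 0.999, 95 cells). By column name they did not on TH02_16.18.20 (r = -0.0338, 95 cells) or on TH02_20.16.18 (r = -0.0519, 94 cells). After the columns of these 2 plates were exchanged well by well, r was 0.999 on each, so the exchange was used throughout, and values on TH02_18.20.16 alone, used as named, are given for the main results. FPKM divides fragments by transcript length and library size, so levels can be compared between genes per length. The sum of FPKM per member had a median of 191770 on TH02_16.18.20, 548182 on TH02_18.20.16 and 298274 on TH02_20.16.18, so TH02_18.20.16 weighs most in a mean; members had 2169 to 7487 genes per label (median 5573) and the 169 other passed P7 cells 2146 to 7872 (median 4816). Among the latter, P7.FB.1 cells had 2720 to 5580 genes (median 4525), and the medians of midbrain and olfactory bulb cells were 6185 and 3290. Members thus had more genes per cell than most P7.FB.1 and olfactory bulb cells. The part of this in differences of shares and folds was not tested. No interval given here covers more than counting error.

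One member on TH02_18.20.16 stood apart. It had Slc6a3 at FPKM 3513, whereas no other member exceeded 81.0, and Th at 4569, the highest of all members. It was the only member with the nicotinic receptor subunits Chrna6 (493) and Chrnb3 (408) or the midbrain factors Pitx3 (58.7) and En1 (37.1) at FPKM of 1 or more. It was the highest member for 10 of 15 listed genes of midbrain dopamine neurons. Gad1 was listed at 0 in it, Gad2 was at 0.21, and of the cluster's markers Lingo2 and Spock1 were listed at 0. Values of the dopamine genes that rest on this cell are given with and without it.

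The 4 genes that mark the cluster separated it from P7.FB.1 more than from the other regions. Vstm2a, an immunoglobulin-domain protein, was found (FPKM of 1 or more) in 44 of 55 members (exact Clopper-Pearson 95% interval of the share 67.03 to 89.6%). It lies on chromosome 11 from 16257724 to 16427310 (GRCm38, plus strand). Its FPKM in members ran from 0 through a median of 49.4 to 239. In P7.FB.1 it was found in 1 of 26 cells, but in 90.7% of midbrain and 67.6% of olfactory bulb cells. Spock1, a secreted proteoglycan gene on chromosome 13, was found in 45 members (median 45.95, highest 461) and in 6 of 26 P7.FB.1 cells. Lingo2, a leucine-rich repeat membrane protein gene on chromosome 4, was found in 35 members (median 13.6, highest 676) and in 2 P7.FB.1 cells. Pde4b, a cAMP phosphodiesterase gene on chromosome 4, was found in 32 members (median 7.66, highest 328) and in 2 P7.FB.1 cells.

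Against P7.FB.1 the log2 folds of the means (pseudocount of 1 FPKM, as for every log2 fold here) were 5.78 for Vstm2a, 4.34 for Spock1, 4.30 for Pde4b and 3.97 for Lingo2. Against all other passed P7 cells they were 2.08 for Lingo2 and 1.98 for Spock1, but 0.51 for Vstm2a and -0.09 for Pde4b. On TH02_18.20.16 alone they were 2.60, 2.15, 0.37 and 0.27. All 4 markers were found together in 15 members and at least 2 in 51. In P7.FB.1 18 of 26 cells had none of them, but 13 of 75 midbrain cells had all 4. The difference from P7.FB.1 restates how the markers were chosen, and the means of Vstm2a and Pde4b were within 2-fold of those of the rest of P7.

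**Figure D1:**
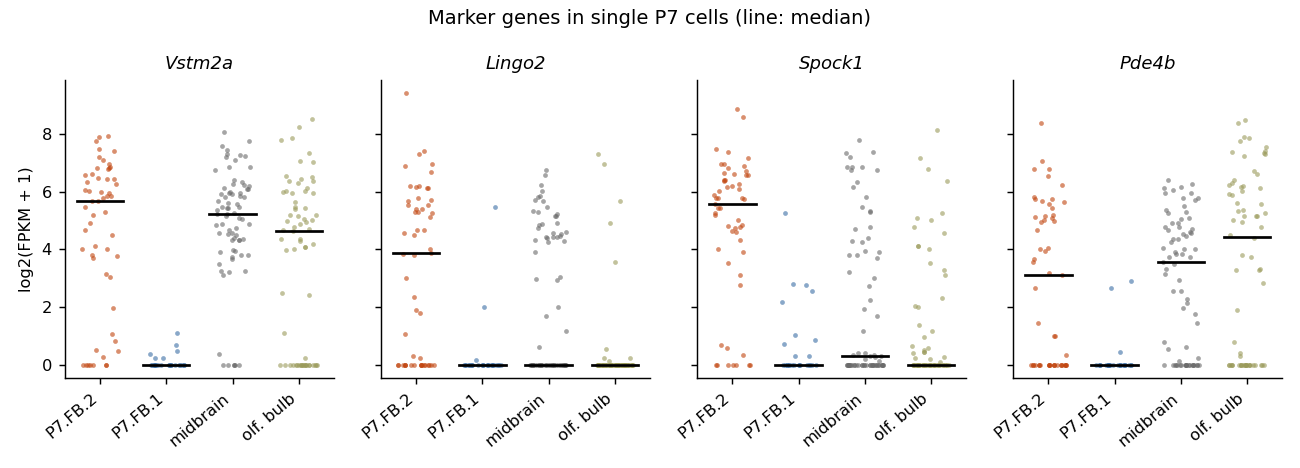
Each point is 1 cell and shows log2(FPKM + 1) of a marker gene in P7.FB.2 (55 cells), P7.FB.1 (26), P7 midbrain (75) and P7 olfactory bulb (68), with a line at the median. Nearly all P7.FB.1 points lie at or near 0, whereas the mean FPKM of Vstm2a is 53.3 in midbrain cells and 60.1 in P7.FB.2.

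Because the sort rests on Th regulatory DNA, and because the peptide with one of the highest levels in members was somatostatin (Sst), the bases before the start of these 2 genes are shown (RefSeq, GRCm38.p6, 250 bases up to the base before the annotated start, 5′ to 3′ on the gene's strand). Capitals mark the cAMP response element TGACGTCA, which reads the same on both strands. It begins 45 bases before the start of Th and 48 bases before that of Sst. It occurs in 1.55% of 32851 promoter windows of this length in the table. Of 46 listed peptide genes 35 had a window, and the element was in those of 4 (Sst, Cartpt, Scg2 and Ucn). The list holds Igf1, Bdnf, Scg2 and Vgf, which are not classical neuropeptide precursors. Th, chr7:142899996-142900245, minus strand:
Th: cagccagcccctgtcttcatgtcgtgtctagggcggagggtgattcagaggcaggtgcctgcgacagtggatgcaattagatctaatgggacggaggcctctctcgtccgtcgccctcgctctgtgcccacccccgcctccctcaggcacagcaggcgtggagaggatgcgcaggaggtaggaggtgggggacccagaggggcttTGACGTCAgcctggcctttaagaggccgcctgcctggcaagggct
Sst, chr16:23890845-23891094, minus strand:
Sst: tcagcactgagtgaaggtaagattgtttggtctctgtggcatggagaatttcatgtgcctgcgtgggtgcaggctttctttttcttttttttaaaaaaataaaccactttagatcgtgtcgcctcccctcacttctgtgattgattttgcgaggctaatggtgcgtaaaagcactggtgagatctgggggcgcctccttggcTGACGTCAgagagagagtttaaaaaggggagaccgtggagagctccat
A match of these letters is a description of the window and not a measured site.

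Th was found in 51 of 55 members (92.7%, interval 82.4 to 98.0%), but its level spanned the whole range. It ran from 0 through a median of 81.7 to 4569, with 40 cells at 10 or more and 25 at 100 or more. The mean was 411 ± 878 (SD over 55 cells), against 1121 in the other P7 cells, 1490 in midbrain, 980 in olfactory bulb and 424 in P7.FB.1. The log2 fold was -1.45 against the other P7 cells and -0.04 against P7.FB.1. Without the cell with the most Slc6a3 these values were -1.74 and -0.34, and on TH02_18.20.16 alone -1.22 and 0.14. The eGFP transcript was found in 38 members, with Th in 37 of them, and 14 members had Th without it. Neither transcript reached FPKM of 1 in 3 members. The levels of Th and eGFP went together over the 55 cells (r = 0.65 of log2(FPKM + 1), 0.34 to 0.80 by plate).

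The rest of the dopamine pathway was carried by a subset of the cells. Ddc was found in 30 members (54.5%, median 6.15, highest 1072) and Slc18a2 in 28 (50.9%, median 1.06, highest 803). Gch1, which makes the cofactor of Th, was found in 11 and Slc6a3 in 13 members. All 13 cells with Slc6a3 also had Slc18a2 and Ddc, against 6.62 and 7.09 cells that the product of the shares gives. Ddc and Slc18a2 were found together in 23 cells, against 15.3 from the shares (r = 0.69, 0.39 to 0.87 by plate). Th, Ddc and Slc18a2 were thus together in 22 cells (interval of the share 27.02 to 54.1%), and all with Slc6a3 in 13 (23.6%, interval 13.2 to 37.0%). At FPKM of 10 or more these numbers were 15 and 9. On TH02_18.20.16 alone, 8 of 21 members had the first 3 genes and 4 had all 4. A further 18 members (32.7%, interval 20.7 to 46.7%) had Th with neither Ddc nor Slc18a2, 10 of them on TH02_18.20.16.

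In P7.FB.1 Slc18a2 was found in 8 of 26 cells and Slc6a3 in 4, with means of 4.22 and 1.72. The log2 fold of Slc18a2 in P7.FB.2 over P7.FB.1 was 3.14, and 2.61 without the cell with the most Slc6a3. For Slc6a3 it was 4.68, and 1.20 without that cell, which held 92.5% of the members' total. Against midbrain cells the log2 fold of Slc6a3 was -3.29 with that cell and -6.78 without it, and that of Slc18a2 was -2.96 without it. Against olfactory bulb cells the log2 fold of Slc6a3 was 0.061 with that cell and -3.43 without it. The D2 autoreceptor gene Drd2 was found in 16 members and in no P7.FB.1 cell (mean 7.69 against 0.0116). Aldh1a1, an aldehyde dehydrogenase of some midbrain dopamine neurons, reached 28.9 at most and was at FPKM of 1 or more in 7 members, 6 of them on TH02_16.18.20, whereas its mean in midbrain cells was 793.

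Among cofactor and breakdown genes Gch1 stood out. Its log2 fold was -0.67 against the other P7 cells and 3.69 against P7.FB.1, and -0.999 and 3.36 without the cell with the most Slc6a3. The means of Qdpr (64.4 against 61.6), Pts (21.0 against 22.3) and Maoa (11.9 against 11.5) were close in members and other P7 cells. Spr (5.67 against 4.67), Maob (7.04 against 5.26), Pcbd1 (38.96 against 48.7) and Cyb561 (35.2 against 26.8) also stayed within 2-fold. Slc10a4, a vesicular orphan transporter gene, was found in 23 members, and Sncg in 13 members and in no P7.FB.1 cell. Of the 18 listed dopamine genes, all tested against the other P7 cells, 1 was at least 2-fold higher and 5 at least 2-fold lower in P7.FB.2. Over all 12094 genes tested, 5.34% were at least 2-fold higher and 5.84% at least 2-fold lower. The list's median log2 fold was -0.25 against 0.10 over all genes. Against P7.FB.1 17 were tested, 9 were higher and 1 was lower, where 18.9% of 11993 genes were higher and 11.1% lower (median 1.16 against 0.10 over all genes).

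**Figure D2:**
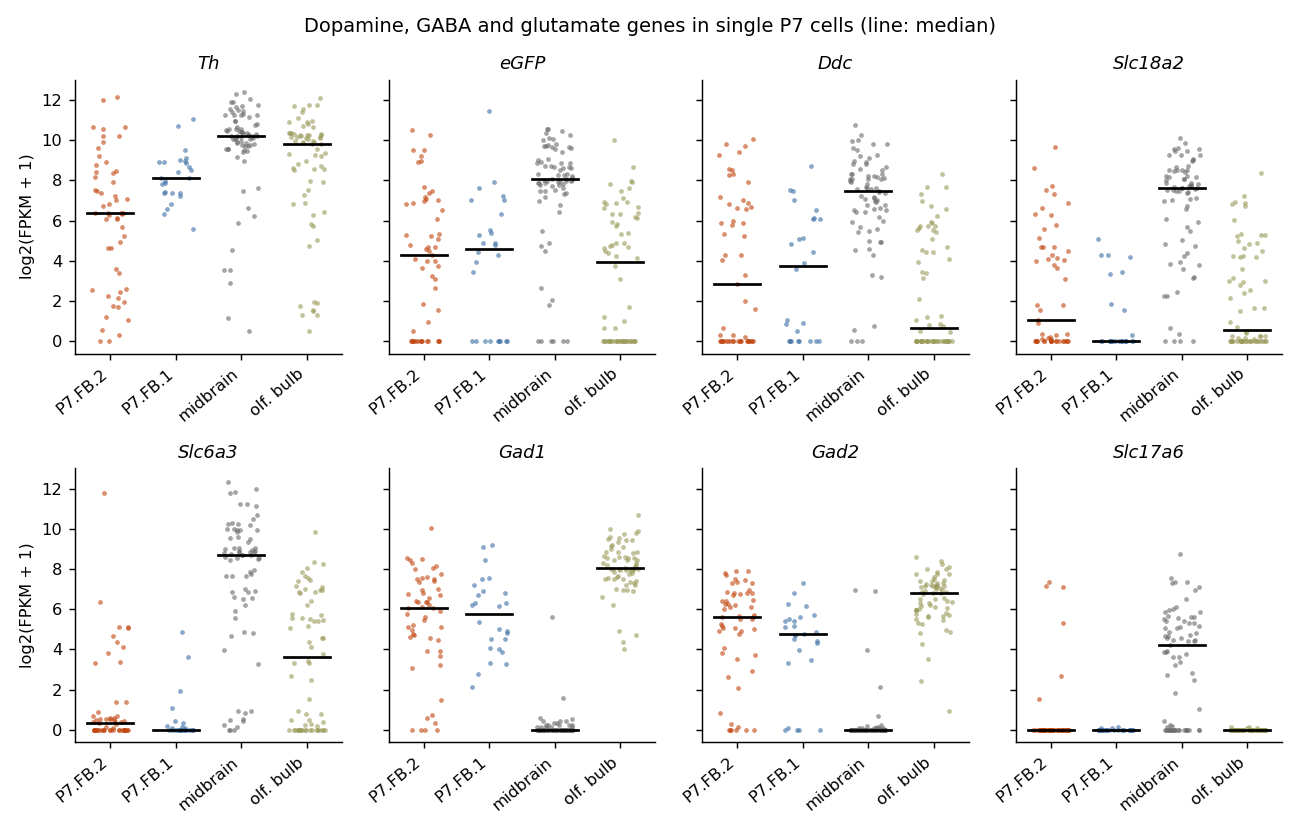
Each point is 1 cell and shows log2(FPKM + 1) of a dopamine, GABA or glutamate gene in the same 4 sets of cells, with a line at the median. In P7.FB.2 Th spreads from 0 to above 12 on this scale, Gad1 and Gad2 are high in most cells, and Slc17a6 is above 0 in a handful.

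Nearly all members carried GABA genes. Gad1, which makes GABA, was found in 48 (median 66.9, highest 1045) and Gad2 in 46 (median 47.8, highest 240). At least 1 of these was found in 52 members (94.5%, interval 84.9 to 98.9%), and Th with at least 1 of them in 49. Slc32a1, the vesicular GABA transporter, was found in 41 members and the GABA transaminase Abat in 51. Gad1 was found in all 26 P7.FB.1 cells at a like level (mean 111 against 115), and Gad2 in 21 (35.1 against 69.3). In midbrain cells Gad1 was found in 2.67% and Gad2 in 5.33%. None of the 5 listed GABA genes passed 2-fold against the other P7 cells, which include the olfactory bulb. In that comparison 5.34% of all genes were higher and 5.84% lower, and 5 genes are too few to set against these shares. Against P7.FB.1 2 were higher and none lower, where 18.9% and 11.1% of all genes were. Against midbrain cells 4 were higher (808 of all 12023 genes), and against olfactory bulb cells 3 were lower (1220 of 12176). On TH02_18.20.16, as named, 17 of 21 members had Gad1 and 20 of 21 had Th.

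The 3 members without Gad1 and Gad2 all had Slc17a6, the vesicular glutamate transporter of many hypothalamic and thalamic neurons. Slc17a6 was found in 6 members (10.9%, interval 4.11 to 22.2%), and in no P7.FB.1 cell. Its values were 163, 142, 137, 38.2, 5.39 and 1.85; the fifth of these is the cell with the most Slc6a3. At FPKM of 10 or more, 4 cells had Slc17a6 and none of them had Gad1 or Gad2 at that level. These 4 came from all 3 plates. Slc17a7 was listed at 0 in every member, and Slc17a8 was found in 3.

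Adcyap1, the precursor of the peptide PACAP, was found in 7 members and in 5 of the 6 with Slc17a6, where the shares give 0.764 cells (r = 0.82, 0.53 to 1.00 by plate). In the 4 cells with the most Slc17a6, Adcyap1 was at 776, 75.6, 38.03 and 72.5. The forkhead gene Foxp2 was at 509, 281, 363 and 0.704 in those cells, and the LIM-homeodomain gene Lmx1a at 70.1, 32.1, 86.5 and 0.125. Isl1 stayed below 1 in all 6 cells with Slc17a6, where the shares give 3.82, and Dlx1 was found in 1 of the 6. Th was at 1499 and 586 in the first and second of the 4 cells, but listed at 0 in the third and at 0.466 in the fourth. Nr4a2 was at 12.7 and 35.1 in the first and second, listed at 0 in the third and at 0.432 in the fourth. The second was also the member with Vip at 812. Lmx1a, a factor of midbrain dopamine neurons as well, was also at 24.6 in the cell with the most Slc6a3 and below 1 in all remaining members. Foxp2 was not limited to cells with Slc17a6: it was highest, at 523, in a member with Slc17a6 listed at 0 and Gad1 at 190, and at 361 and 112 in 2 others of that kind. These genes were singled out after their values had been seen.

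Peptide genes were uneven among members. Of 42 neuropeptide precursors considered as leading peptides, 34 of 55 members (61.8%) had one at FPKM of 100 or more. The 42 are the 46 listed genes without Igf1, Bdnf, Scg2 and Vgf. The highest precursor of a cell was taken as its leading peptide, and 11 different genes took that place. Tac1, the precursor of substance P and neurokinin A, led in 9 cells, Gal in 7, Npy in 4, and Ghrh, Penk and Sst in 3 each. Adcyap1, Cartpt, Cck, Nts and Vip led in 1 cell each, and Cck did so in the cell with the most Slc6a3. By contrast, 25 of 26 P7.FB.1 cells were led by 1 peptide, Ghrh, and 2 different genes led in all. Of all 169 other P7 cells 145 had a leading peptide, and 12 different genes led, most often Trh (38 cells). In midbrain 61 of 75 cells had one (6 genes), and in the olfactory bulb 58 of 68 (8 genes). A leading peptide was thus less common in members than in the other P7 cells. Of the cells with one, Cck led 36 of 61 in midbrain and Trh 38 of 58 in the olfactory bulb. In P7.FB.2 the most frequent, Tac1, led 9 of 34. By these counts leading peptides were more varied in P7.FB.2 than in P7.FB.1, midbrain or the olfactory bulb. The other P7 cells pool 8 clusters, so their 12 genes do not describe a single cluster. On TH02_18.20.16 alone 17 of the 21 members had a leading peptide and 7 genes led; the higher FPKM sums of that plate moved with this share, and their part in it was not tested.

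**Figure D3:**
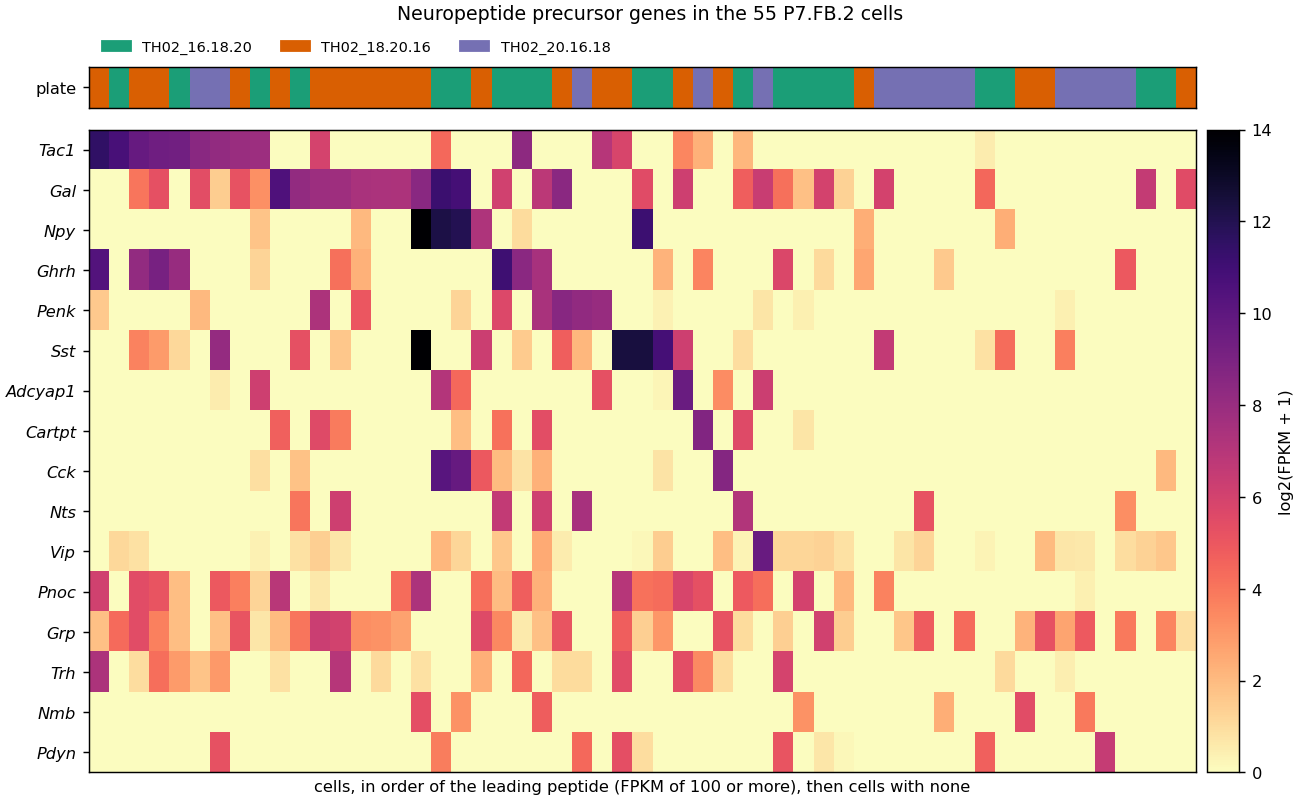
Rows are neuropeptide precursor genes and columns the 55 P7.FB.2 cells, ordered by leading peptide, with colour for log2(FPKM + 1) and the library plate on top. The order by leading peptide sets the runs of Tac1, Gal, Npy, Ghrh, Penk and Sst, and high values also fall outside them. The highest Sst (19282) and Gal (2347) values lie in cells led by Npy, and Ghrh at 1306 lies in a cell led by Tac1. The 21 cells at the right have no precursor at FPKM of 100 or more.

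Tac1 had the largest log2 fold over the other P7 cells among the leading peptides. It was found in 17 members (30.9%, interval 19.1 to 44.8%) and in 7.69% of other P7 cells. In 11 members it was at 100 or more, from 123 to 2931. These 11 lay on all 3 plates. Its mean was 155 against 4.61 in the other P7 cells and 10.9 in P7.FB.1 (log2 folds 4.80 and 3.71, and 5.22 and 3.90 on TH02_18.20.16 alone). Meis2, a TALE homeodomain gene, was found in 11 of the 17 cells with Tac1, where the shares give 6.80 (r = 0.52, 0.30 to 0.73 by plate). Synpr, a synaptic vesicle gene, had the highest correlation with Tac1 among genes found in 10% to 80% of members that passed the rule on every plate (r = 0.66, at least 0.62 on each plate).

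Somatostatin and neuropeptide Y reached the highest single values. Sst was found in 18 members, and 5 had it at 19282, 5442, 5311, 1856 and 279. Npy was found in 10, and 5 had it at 21816, 4830, 4004, 2203 and 151; none of the 10 lay on TH02_20.16.18. One cell on TH02_18.20.16 held the highest value of both genes, with Gal at 365, Pnoc at 157 and Gad1 at 1045. That cell gave 59.3% of the members' Sst total and 66.1% of the Npy total. The mean of Sst was 592, and 245 without its highest cell, against 33.3 in the other P7 cells and 0.116 in P7.FB.1. The mean of Npy was 600, and 207 without its highest cell, against 53.6 and 3.90. Agrp, which marks a class of arcuate neurons with Npy, was listed at 0 in that cell. Sst was found together with Pnoc, the nociceptin precursor, in 12 cells (7.85 from the shares) and with Isl1 in 16 (11.5 from the shares).

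Galanin and growth hormone-releasing hormone marked P7.FB.1 far more than P7.FB.2. Gal was found in 31 members, with a median of 8.65 and a highest value of 2347, and in 25 of 26 P7.FB.1 cells (mean 154 against 1381, log2 fold -3.16). Ghrh was found in 17 members and in 25 P7.FB.1 cells (mean 95.4 against 4611, log2 fold -5.58). On TH02_18.20.16 alone the log2 folds were -3.71 for Gal and -6.13 for Ghrh. In 7 members Ghrh still reached 176 to 2178. Of those 7, 5 also had Tac1 at 100 or more. Each of these 5 cells also had Ddc, Gch1, Drd2, Etv1 and Meis2, with Th from 975 to 4100. They lay on TH02_16.18.20 and TH02_18.20.16, and none on TH02_20.16.18. They are counted in the pair of Tac1 with Meis2 above and in several pairs of these genes below. Gsx1, a homeobox gene found in 88.5% of P7.FB.1 cells, was found in 8 members, all of which had Gal (4.51 from the shares), and 5 of which had Cartpt (1.16 from the shares).

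Lower but common peptides were Grp (34 members, highest 77.5), Pnoc (24 members, highest 157) and Trh (16 members, highest 159). Pnoc was higher than in the other P7 cells (log2 fold 1.65) and than in P7.FB.1 (2.20). Trh, abundant in the olfactory bulb (mean 872), had a mean of 9.14 in members. Vip was at FPKM of 1 or more in 16 members, 11 of them on TH02_16.18.20, but 1 cell at 812 held 95.6% of the total and the next was at 4.67. Penk was found in 10 members (5 at 100 or more), with a log2 fold over P7.FB.1 of -0.23, but 4.59 on TH02_18.20.16 alone. Also found were Cartpt, Cck and Nts in 8 members each, and Pdyn, Nmb and Adcyap1 in 7 each. Of the 46 listed peptide genes, with Igf1, Bdnf, Scg2 and Vgf, 10 were listed at 0 in every member. Against the other P7 cells 29 were tested, 7 were higher and 10 lower (median -0.43), where 5.34% of all genes were higher and 5.84% lower. Against P7.FB.1 25 were tested, 12 were higher and 8 lower (median 0.99), where 18.9% and 11.1% of all genes were.

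Most members carried several peptides. At FPKM of 1 or more a member had 1 to 11 of the 42 precursors (median 5), and other P7 cells 0 to 11 (median 5). At FPKM of 100 or more 18 members had at least 2. The most common pair was Ghrh with Tac1, in 4 cells and in 1 more with Trh. The number of peptides found went with the number of genes in the label (Pearson 0.42, Spearman 0.42, over 55 cells), which share the cells' depth.

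Among transcription factors, the Dlx family of GABAergic forebrain neurons was found most widely. Dlx1 was found in 44 members, Dlx2 in 39, Dlx5 in 33 and Dlx6 in 29, and 47 members (85.5%, interval 73.3 to 93.5%) had at least 1. Dlx1 and Dlx2 lie 9426 bases apart on chromosome 2 and were found together in 37 cells (31.2 from the shares, r = 0.65). Dlx5 and Dlx6 lie 9236 bases apart on chromosome 6. Dlx6os1, found in 12 members, overlaps Dlx6 on the other strand and extends beyond it. Without strand, reads in the stretch they share may not be told apart. In midbrain cells none of the 4 Dlx genes was found. Against P7.FB.1 Dlx5 was higher (log2 fold 1.23) and Dlx1 (0.22) and Dlx2 (-0.44) were within 2-fold. The family's median was 1.04 on means, but -0.36 on the mean of log2 values. By column name, where labels and columns of 2 plates did not match in gene number, it was -0.21.

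Isl1, a LIM-homeodomain gene of arcuate and other ventral forebrain neurons, was the gene with the largest fold over the other P7 cells under the rule for named genes. It was found in 35 members (63.6%, interval 49.6 to 76.2%), with a median of 21.4 and a highest value of 353. In midbrain cells it was listed at 0 and in the olfactory bulb it was found in 1.47% of cells, whereas 22 of 26 P7.FB.1 cells had it. The log2 fold was 2.93 against the other P7 cells and 0.40 against P7.FB.1, and 3.64 and 1.30 on TH02_18.20.16 alone. Every member with Isl1 also had Gad2 (35 cells, 29.3 from the shares, r = 0.65). Isl1 therefore belongs to both forebrain clusters, not to P7.FB.2 alone.

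A pair of factors of the ventral hypothalamus and eye field, Six3 and Six6, set P7.FB.2 apart from other regions. Six3 was found in 18 members and Six6 in 12, 10 cells had both (3.93 from the shares) and 20 had at least 1. Six6 ran up to 163 (mean 11.2), and Six3 up to 45.96 (mean 3.39). In P7.FB.1 3 and 2 cells had them, and no midbrain or olfactory bulb cell did. Lhx1, a LIM-homeodomain gene, was found in 11 members, up to 85.3, was listed at 0 in P7.FB.1 and was found in 0.592% of other P7 cells. Lhx1 went with the dopamine transporter. It was found in 8 of the 13 members with Slc6a3, where the shares give 2.60 (r = 0.49, 0.34 to 0.87 by plate), and all 8 had Slc18a2 and Ddc. These 8 lay on all 3 plates (3, 2 and 3 cells). Otp, of the paraventricular and arcuate region, was found in 5 members and was listed at 0 in all other P7 cells, and Nkx2-1 was found in 8 members.

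A second set of factors was shared with the olfactory bulb, and Meis2, Sp8 and Meis1 of it were found in no P7.FB.1 cell. Meis2 was found in 22 members (median 0, highest 176) and in 80.9% of olfactory bulb cells. Sp8, a zinc finger gene, was found in 21 members and in 88.2% of olfactory bulb cells. They were found together in 18 members, where the shares give 8.40 (r = 0.60, 0.52 to 0.86 by plate). Etv1, an ETS-domain gene, was found in 14 members, each time at 10 or more, and in 6 P7.FB.1 cells. Meis1, a relative of Meis2, was found in 14. Pbx3, whose family pairs with Meis proteins, was found in 27 members, in 11 P7.FB.1 cells and in 19 of the 22 cells with Meis2 (10.8 from the shares). Pax6, found in 86.8% of olfactory bulb cells, was found in 9 members. Sall3, Eya2 and Shisa8, on the list of olfactory bulb interneuron genes, did not reach FPKM of 1 in any member.

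Six6 shared few cells with the second set, whereas the counts for Six3 and Lhx1 were mixed. Six3 and Meis2 were found together in 8 cells (7.20 from the shares), but Six3 and Etv1 in 2 (4.58), and Lhx1 and Meis2 in 5 (4.40). Six6 and Meis2 were found together in 1 cell, where the shares give 4.80, and at FPKM of 10 or more in none. Six6 and Etv1 shared no cell (3.05 from the shares), and neither did Six6 and Nr2f2 (3.05). Prox1, found in 84.6% of P7.FB.1 cells and in 17 members, shared 1 cell with Meis2 (6.80 from the shares) and none with Meis1 (4.33). Prox1 was also apart from Slc18a2 (3 cells, 8.65 from the shares). Six6 went with Lmo4, a LIM-only gene, in 7 cells (3.27 from the shares). In all, 1620 pairs of genes were computed, and the pairs described were chosen after their values had been seen, with no test; each member of a pair shares its cells' depth.

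**Figure D4:**
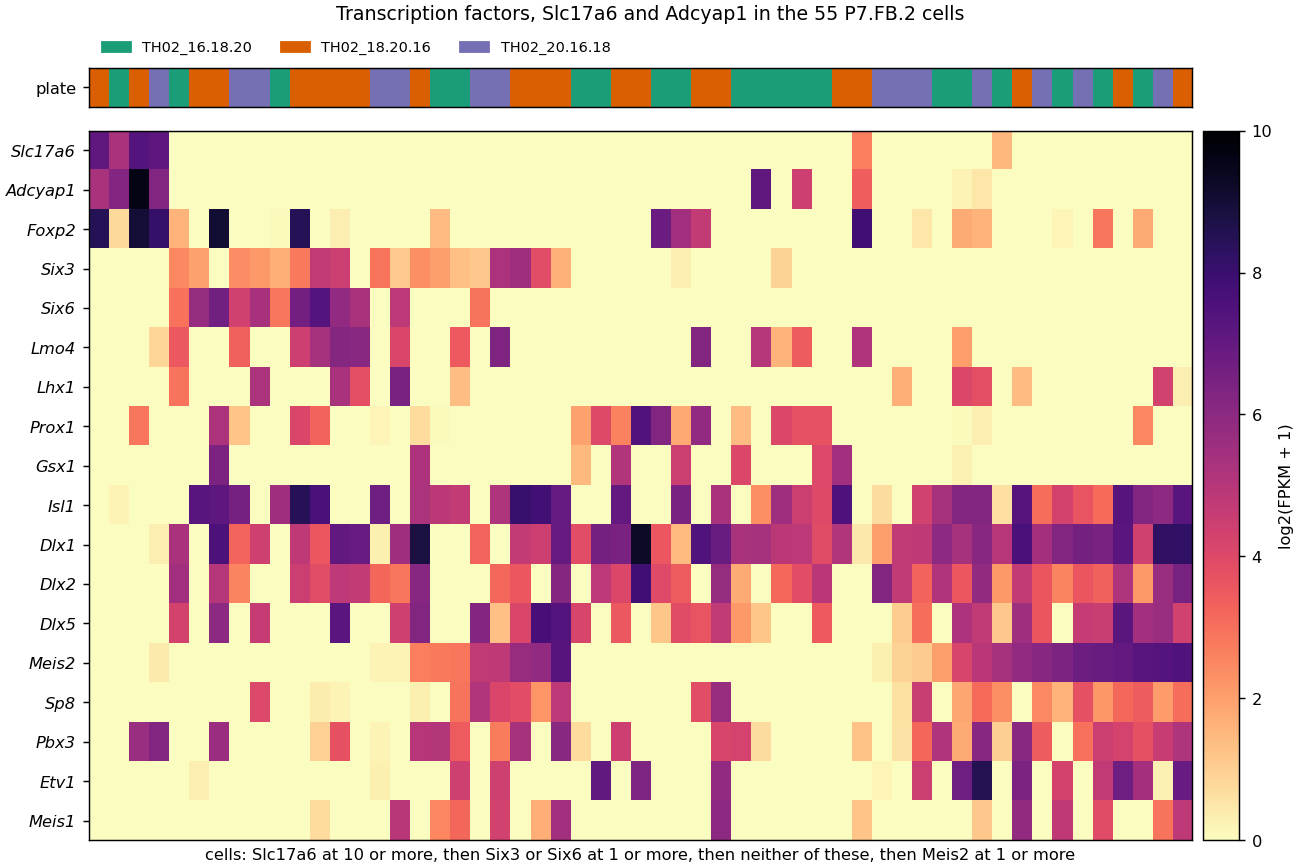
Rows are transcription factors with Slc17a6 and Adcyap1, and columns the 55 P7.FB.2 cells, with the 4 cells with Slc17a6 at 10 or more first, then those with Six3 or Six6, then those with none of these, then those with Meis2, colour for log2(FPKM + 1) and the library plate on top. The first 4 cells are below 1 for Isl1, Dlx1, Dlx2 and Dlx5, and Six6 and the highest Meis2 values fall in different cells.

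Some dopamine genes were found with factors of the second set. Gch1 and Meis1 were found together in 8 cells (2.80 from the shares, r = 0.62) and Drd2 and Etv1 in 10 (4.07 from the shares, r = 0.60, 0.57 to 0.77 by plate). Gch1 and Slc6a3 were together in 3 cells, close to the 2.60 from the shares. Ghrh and Etv1 were together in 10 cells (4.33 from the shares). Of the 64 listed hypothalamic factors 46 were tested against the other P7 cells, 12 were higher and 11 lower (median -0.13), where 5.34% and 5.84% of all genes were. Against P7.FB.1 42 were tested, 23 were higher and 8 lower, where 18.9% and 11.1% of all genes were. The list's median was 1.13, but it was -0.37 with a minimum mean of 10. By column name, where labels and columns of 2 plates did not match in gene number, it was -0.014. Rax, Sim1, Fezf1 and Nr5a1, among 8 such genes, were listed at 0 in every member.

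Receptors for hormones and peptides separated the forebrain clusters in both directions. Esr1, the estrogen receptor alpha gene, was found in 3 members and in 96.2% of P7.FB.1 cells (mean 1.02 against 56.9, log2 fold -4.84). Ghr, the growth hormone receptor, was found in 3 members and 76.9% of P7.FB.1 cells, and the neuropeptide Y receptor gene Npy1r in 4 members and 69.2%. Nr3c1, the glucocorticoid receptor gene, had a log2 fold of -2.78. On the other side, Prlr, the prolactin receptor, was found in 12 members and in no P7.FB.1 cell. The serotonin receptor gene Htr2c was found in 17 members and in 3.85% of P7.FB.1 cells (log2 fold 3.21). Oprm1, the mu opioid receptor, was found in 15 members, in 3.85% of P7.FB.1 and in 2.96% of all other P7 cells. Npy2r, the Y2 receptor, was found in 13 members and in 4.73% of other P7 cells (log2 fold 2.67). Galr1, a galanin receptor gene, was found in 7 members and in 1.18% of other P7 cells. Of 42 listed receptors 32 were tested against P7.FB.1, 9 were higher and 13 lower, where 18.9% and 11.1% of all genes were. The list's median was -0.45, but 0.18 on TH02_18.20.16 alone. Against the other P7 cells 33 were tested, 8 were higher and 6 lower (median 0.20), where 5.34% and 5.84% of all genes were.

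Genes for making and releasing peptides were broadly present. Cpe, which trims peptide precursors, was found in all 55 members (mean 446), as was the convertase inhibitor gene Pcsk1n (127), and the granin genes Scg2 (304), Chga (132) and Chgb (65.9) in 50 to 52. The convertases themselves were rarer, with Pcsk2 in 15 members and Pcsk1 in 7. Ecel1, an endopeptidase-like gene, was found in 44 members and in 25 of 26 P7.FB.1 cells, but in 14.7% of midbrain and 5.88% of olfactory bulb cells (mean 137 against 352 in P7.FB.1). Of the 14 listed genes 1 was higher and 2 were lower against the other P7 cells (median -0.05), near the 5.34% and 5.84% of all genes.

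Adhesion and synapse-organising genes like the markers were compared with P7.FB.1 as a list. Of 28 genes, all tested, 16 were higher and none lower (median 1.13), where 18.9% and 11.1% of all genes were, and the list was chosen with the 4 markers in view and holds them. Examples were Lingo1 (mean 19.6 against 1.68), Nlgn1 (12.6 against 1.89), Cbln2 (57.8 against 8.37) and Cntnap2 (99.6 against 25.8). Against the other P7 cells 6 were higher and 1 lower (median 0.51), where 5.34% and 5.84% of all genes were (median 0.10). The higher ones included the markers Lingo2 (log2 fold 2.08) and Spock1 (1.98), and Lrrtm1 (1.93) and Cbln2 (1.94).

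By the rule for named genes the 10 highest against the other P7 cells were Isl1, Aldoc, Fam19a2, Lingo2, Spock1, Lrrtm1, Nell1, D6Wsu163e, Tspan17 and Trib2, with log2 folds from 2.93 down to 1.38. Aldoc, the brain form of fructose-bisphosphate aldolase, was found in 43 members and in 24.3% of other P7 cells (mean 81.8 against 10.1). Fam19a2, a secreted chemokine-like protein gene, was found in 30 members (mean 21.5 against 3.77). The 10 lowest were Pcp4l1, Prss12, Nr4a2, Kcnc2, Cpne7, Synpr, Slc6a3, Sec14l1, Laptm4b and Serpine2, from -4.33 to -2.06. The fold of Slc6a3 in this list was -2.24 and that of Nr4a2 -2.78, and they were -5.73 and -3.63 without the cell with the most Slc6a3. Pcp4l1 and Synpr were high in the olfactory bulb (means of 221 and 405), and Nr4a2, which midbrain dopamine neurons need, was in 93.3% of midbrain cells and 6 members.

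Against P7.FB.1 the 10 highest were the 4 markers with Hpca, Cplx1, Ntm, Calb2, Stx1a and Epha5, from 5.78 to 3.16. The calcium-binding protein genes Hpca (mean 58.1 against 2.15) and Calb2 (141 against 7.47) were among them, with Cplx1 (35.4 against 1.14) and Stx1a (54.1 against 4.41) of synaptic vesicle fusion. Ntm, a neuronal adhesion gene, was found in 47 members and in 30.8% of P7.FB.1 cells (mean 199 against 10.9). The 10 lowest were Ghrh, Esr1, Slc18a3, Ghr, Npy1r, Arhgap36, Rrad, Pld5, Mbnl3 and Ppp1r17, from -5.58 to -3.51. Slc18a3, the vesicular acetylcholine transporter, was found in 3 members and in 65.4% of P7.FB.1 cells. Arhgap36 was found in 33 members but at a mean of 18.7 against 277.

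Genes that were high in a minority of members on every plate were picked by rule, so that their patchiness is not a finding. Under the rule, 91 genes were found in 10% to 40% of members with at least 1 cell at FPKM of 50 or more on each plate. The 15 with the highest means, each taken without its highest cell, were led by Sst (245), Tac1 (104), Foxp2 (35.99), Asb4 (33.9) and the long non-coding RNA gene 1110015O18Rik (29.2). The latter, on chromosome 3, was found in 22 members and was listed at 0 in P7.FB.1. Meis2, the calcitonin receptor gene Calcr (12 members, up to 275) and Penk were also among the 15. The others were Fhit, S100a10, B230118H07Rik, Cpne4, Cd24a, Pcca and a gene without a symbol, ENSMUSG00000097348.8. Asb4, found in all 26 P7.FB.1 cells, was found in 20 members, up to 731.

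For precursors with at least 5 members at FPKM of 100 or more, genes were sought that went with them on every plate, which Npy could not meet because no member on TH02_20.16.18 had it. Gal had 1 such gene, Mef2c (r = 0.53), and Ghrh had 1, D930028M14Rik (r = 0.57). For Sst the first was Syt10 (r = 0.58), and for Penk Hlcs (r = 0.62). These are descriptions over 55 cells that share depth and plates.

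Markers of other cell types differed by type. The pan-neuronal genes Snap25, Tubb3, Stmn2 and Map2 were found in all 55 members. Of the 6 microglial markers Cx3cr1, C1qa, C1qb and P2ry12 were listed at 0 in every member (summed level 0 to 27.96), and of the 6 endothelial and mural markers Cldn5, Flt1 and Kdr were (0 to 62.9). Of the 7 cell cycle genes 4 were listed at 0, Mki67 and Top2a among them. The summed level of the 10 astrocyte and tanycyte genes was 0 to 439 in members (median 55.5), against 0 to 129 in P7.FB.1 (median 3.52) and 0 to 444 in the other P7 cells (median 7.76). Beside Aldoc, Slc1a2 was found in 18 members, but Aldh1l1 and Gja1 in 1 each, Aqp4 in 3 and Slc1a3 in 4. The summed oligodendrocyte genes ran from 0 to 146 (median 1.50) and Olig2, Sox10 and Cspg4 were listed at 0. The 15 midbrain genes summed to 0 to 6298 in members (median 19.4, against 1339 in midbrain cells), and of 14 tested against the other P7 cells 13 were lower (median -2.07, and -2.78 without the cell with the most Slc6a3). The 14 olfactory bulb genes summed to 0 to 676 (median 60.8, against 1677 in olfactory bulb cells). Genes of the immediate early response, which dissociation can raise, were lower than in P7.FB.1: of 9 tested 7 were lower (median -1.42), where 11.1% of all genes were, with Fos at a mean of 33.8 against 167. Against midbrain cells 3 of 10 tested were higher and none lower, where 808 of all 12023 genes tested were higher and 674 lower. Against olfactory bulb cells 8 of 10 were lower and none higher (median -1.42), where 1220 of 12176 genes were lower. Against all other P7 cells 5 of 10 were lower and none higher (median -0.79), where 5.84% of all genes were lower. The part of these genes in the differences between clusters was not tested.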

How the data were processed

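The deposited table holds FPKM values of 28952 features, the authors' own output; the submitters' processing notes name HISAT2, Cuffnorm and the mm10 build, with no version and no annotation release in the sources used here. Symbols (28636 features) and coordinates come from GENCODE M21 (GRCm38). Low values showed no steps of whole fragments, so depth is unknown and the number of genes in the labels stands in for it. Abundant genes were also at 0 in 0.909% of member values, so zeros can be failed estimates.

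Members are the cells with the authors' label; the members and the 20 gene lists were chosen with earlier results of these data known. Means over cells were compared as log2((mean + 1)/(mean + 1)) for genes whose mean reached 1 in either group, and a 2-fold difference counted as a call. With 1 pool of 5 mice per region there was no replicate and no test. A gene was found at FPKM of 1 or more. Genes named were the markers, all dopamine, GABA and glutamate genes, the peptide, factor and receptor genes found in at least 10% of members, the 10 highest and lowest folds (mean of at least 20, at least 50% of cells, same direction on each plate), the 15 patchy genes, and up to 3 partners of a peptide (r of at least 0.5, and 0.3 on each plate). Other list genes named, such as Otp and Lmx1a, and markers of other cell types lie outside these rules and were chosen after their values were seen. The calculation was checked on simulated data. No 2 cells had identical columns. Some genes of the lists are not reported here. Python 3.11.15, numpy 2.4.6 and scipy 1.17.1 were used; alternatives are listed in the closing section.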

Additional observations from a re-analysis of the deposited data

How the results depend on the processing

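Counts of genes past 2-fold depended strongly on settings. Against the other P7 cells, 646 genes were higher and 706 lower. With a pseudocount of 0.1 these were 1199 and 1184, with 10 they were 43 and 72, and with a minimum mean of 10 they were 223 and 169. On the mean of log2 values they were 397 and 96, and on plate TH02_18.20.16 alone 1462 and 1820. The higher count was 332 with each cell rescaled to the same sum, 307 without the highest cell of each gene and 1183 without plate TH02_16.18.20, and the lower count was 1078 without plate TH02_20.16.18. Rescaling moved the share of calls that were higher from 47.8% to 34.3% and the median of all genes from 0.10 to -0.01. Against P7.FB.1 2267 were higher and 1329 lower. These became 283 and 163 with a pseudocount of 10, 744 and 564 with a minimum of 10, 1246 and 382 on the mean of log2 values, and 3995 and 2065 on plate TH02_18.20.16 alone. Without the highest cell the lower count was 655.

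A change of sign was recorded only for recomputed folds that were at least 2-fold in the main results. By column name, without the exchange, the labels and columns of 2 plates did not match in gene number. These log2 folds then changed sign against the other P7 cells: Etv1 0.35, Lhx1 -0.019, Pcp4l1 0.24, Sec14l1 0.013 and Trh 0.54. Against P7.FB.1 they were Dlx6 -0.21, Meis2 -0.36 and Trh 0.43, with medians of -0.014 for hypothalamic factors and -0.21 for the Dlx family. The factors' median was -0.37 with a minimum of 10, and that of the Dlx family -0.36 on the mean of log2 values. The cause was not tested. A leading peptide was present in 94.5% of members at FPKM of 10 or more (17 genes) and in 81.0% on plate TH02_18.20.16 alone (7 genes). Leaving out the cell with the most Slc6a3 was an alternative chosen after seeing the data. It reversed no recomputed fold that was at least 2-fold in the main results, against the other P7 cells or P7.FB.1. A smaller fold could change sign: Dlx1 against the other P7 cells went from -0.0088 to 0.017. On plate TH02_18.20.16 alone, 52 of 56 and 52 of 55 folds of named genes had the same sign against these groups. No paired analysis over animals was possible because each region is 1 pool of mice, and no result comes from a test. The plates held cells of all regions, and folds within a plate are given as values for TH02_18.20.16 only.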
